A study of Homo sapiens with 2 samples.

Results

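TERF1 and its 7 annotated pseudogenes were examined in a map of TRF2 on chromatin. Of these 8 loci, 5 carried peaks of the TRF2 immunoprecipitate: TERF1 itself and the pseudogenes TERF1P2, TERF1P3, TERF1P4 and TERF1P5. A locus counted when a peak summit, the position of highest signal in a peak, lay inside the annotated span or within 3 kb of it. By this rule 16 of the 24258 deposited summits belonged to the family, 8 in TERF1 and 8 in pseudogenes. All 16 lay inside the spans, so the 3 kb margin added none. Over all 58961 annotated genes, 3.09% had a summit by the same rule. The summits were selected on their deposited positions and the loci were chosen with their peaks known, so counts, folds and ranks are a description with no test.

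The cells were HCT116, a human colorectal carcinoma line, with no genotype change or treatment named in the sample labels. The name of the deposited peak list mentions a control siRNA, so whether the cells had been transfected is not settled. Fixed, sonicated chromatin was precipitated with an antibody to TRF2 and compared with input chromatin that saw no antibody. There was 1 immunoprecipitated library and 1 input library, so no difference between samples could be tested.

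TERF1 encodes TRF1 and TERF2 encodes TRF2, related proteins of the shelterin complex that caps telomeres. Each binds the double-stranded telomere repeat as a homodimer, through a Myb-type domain at its C terminus. TRF1 restrains telomere lengthening by telomerase and assists replication of telomeric DNA, while TRF2 protects chromosome ends from being joined or sensed as breaks. A processed pseudogene is a copy of a spliced mRNA that was written back into the genome, and it therefore holds the exons of its parent without the introns. The gene table names the family pseudogenes without saying whether they are processed.

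The annotated spans differed widely. TERF1 covers 39260 bp of band q21.11 on chromosome 8, from 73008864 to 73048123 (hg38, 1-based). TERF1P1 (2727 bp, chromosome 21), TERF1P2 (2818 bp, chromosome 18), TERF1P3 (2869 bp, chromosome 4) and TERF1P5 (2808 bp, chromosome 13) are of nearly equal length. TERF1P4 (1478 bp, chromosome X) and TERF1P6 (705 bp, chromosome 2) are shorter, and TERF1P7 (32777 bp, chromosome X) is almost as long as the parent gene. TERF1P5 lies in the centromere band q11 of chromosome 13, and TERF1P1 and TERF1P2 lie within 2 Mb of a centromere band. The other 5 loci are on chromosome arms.

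Family summits were strong for this peak list. Fold over input, the authors' value at the summit, had a median of 10.2 over the 16 summits (range 4.30 to 36.6), against a median of 4.06 over all peaks and 3.76 over arm peaks. The number of reads at the summit, back-calculated from the deposited fold and p, was 9 to 74 (median 22.5), against 11 over all peaks. A −log10 q of 5 or more, called strong here, was reached by 13 of the 16 summits, and by 30.0% of all peaks. All 16 had a q-value under 0.05, as had 79.3% of all peaks and 54.7% of arm peaks. The local input background was at its genome-wide minimum of 1.05 at 12 of the 16 (75.0%), a share near that of arm peaks (76.0%) and above that of all peaks (29.5%). At those summits fold rises with the immunoprecipitated reads alone, which places them on the upper edge of the plot of reads against fold.

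**Figure D1:**
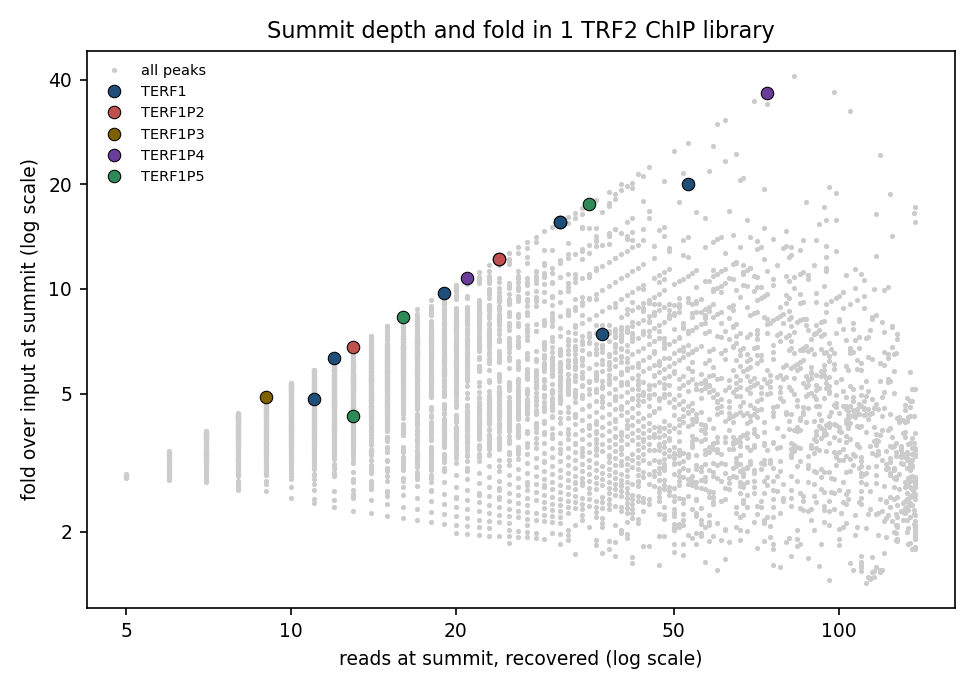
Reads at the summit (horizontal, recovered from deposited fold and p-value, log scale) against fold over input (vertical, log scale) for all 24258 peaks (grey) and the 16 family summits (coloured by locus). Of the 16, 12 lie on the upper edge, where the input background is at its minimum, and the highest is TERF1P4 at 74 reads and a fold of 36.6. Points with equal values overlie each other.

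TERF1 carried 8 separate peaks spread over 37069 bp, almost its whole length. Of protein-coding genes, 4.74% had any summit inside or within 3 kb, 0.518% had a strong one and 0.0403% had 2 or more strong ones. TERF1 had 7 strong summits. By general knowledge the gene is read from its lower to its higher coordinate, since the gene table gives no strand. The summits are described in that order, with exact Poisson 95% intervals of the reads, which cover counting error only.

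The first peak, from 73008904 to 73009187, had its summit 98 bp inside the lower end, with a fold of 7.41 and 37 reads (interval 26.1 to 51.0). Its input background of 4.13 was the highest of the family, so its fold ranked below that of peaks with fewer reads. The second, 5069 bp from the lower end, was the weakest of the gene, with a fold of 4.82, 11 reads (5.49 to 19.7) and a −log10 q of 3.60. It was the 1 TERF1 peak that was not strong.

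The next summits lay 11870 and 16027 bp from the lower end, with folds of 6.34 (12 reads, interval 6.20 to 21.0) and 9.76 (19 reads, 11.4 to 29.7). The fifth and the seventh, at 18131 and 30315 bp, had the same deposited fold of 15.6, since both had 31 reads (21.1 to 44.0) over the minimum background. Between them, at 23230 bp, the sixth had a fold of 12.2 and 24 reads (15.4 to 35.7). The 4 summits nearest the start thus had folds of 4.82 to 9.76, and the other 4, the last one included, had folds of 12.2 to 20.1. This split did not hold in reads. The first summit, over a higher background, had 37 reads, against 31, 24 and 31 at the fifth, sixth and seventh, with overlapping intervals.

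The last peak, from 73045963 to 73046315, was the highest of the gene, with a fold of 20.1, 53 reads (39.7 to 69.3) and a −log10 q of 54.3. Its summit lay 2092 bp inside the upper end, with no further summit beyond it. In the order of reads (53, 37, 31, 31, 24, 19, 12 and 11) no pair of neighbours had intervals that were apart. The interval of the last peak was apart from those of the 4 peaks with 24, 19, 12 and 11 reads.

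**Figure D2:**
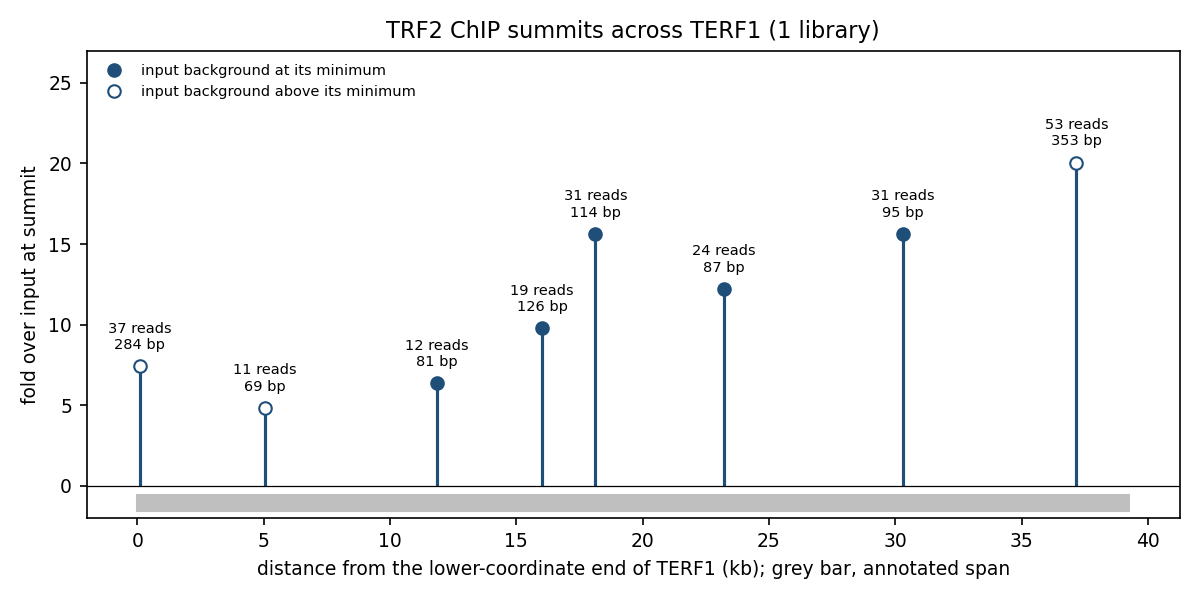
Fold over input (vertical) at the 8 summits along TERF1, placed by distance from the lower-coordinate end in kb. Labels give reads at the summit and peak width, and filled points have the input background at its minimum. The first and last peaks are the widest (284 and 353 bp), and fold is highest (20.1) at the last.

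Width separated the outer peaks from the inner ones. The first and last peaks were 284 and 353 bp wide, whereas the inner 6 were 69 to 126 bp wide (median 91 bp). The smallest width in the whole list was 69 bp. Together the 8 peaks covered 1209 bp, or 3.08% of the gene's span. Neighbouring summits were 2104 to 7085 bp apart (median 5099 bp), with no peak listed between them. The small nuclear RNA pseudogene RNU6-285P, which lies inside the TERF1 span, had no summit within it, and the closest TERF1 summit was 1.69 kb away. That summit was strong, so RNU6-285P counts among the pseudogenes with a strong summit inside or within 3 kb.

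Peaks within 1 Mb of TERF1, outside the gene, were weak. No other summit lay within 100 kb of the gene. The nearest was 315 kb away (fold 5.37, 10 reads, −log10 q 4.12), and none of the 6 within 1 Mb was strong. TERF1P3, TERF1P4, TERF1P6 and TERF1P7, also on arms, had 2, 0, 4 and 1 other peaks within 1 Mb. The flanking protein-coding genes were KCNB2, a potassium channel gene with 1 summit, and SBSPON, 16.4 kb from the upper end of TERF1, with none. The flanking non-coding genes KCNB2-AS1 and LOC107986891 had none. The arm of 8q held 555 of the 3378 arm peaks, against 188 on 4q and 26 on Xq. The 8q peaks had a median fold of 3.41, and 14 of them were strong, of which 7 were those of TERF1. Copy number was not analysed here.

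Among the pseudogenes, 4 of 7 had a summit, and 3 of 7 had a strong one. Over all annotated pseudogenes, 1.5% had a summit inside or within 3 kb, 0.282% had a strong one and 0.0961% had 2 or more strong ones. On arms alone the first of these shares was 0.991%. TERF1P2, TERF1P4 and TERF1P5 had 2 strong summits each and were among 16 such pseudogenes of 16655.

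TERF1P4 on chromosome X (83748625 to 83750102) had the strongest peak of the family. From 83748865 to 83749415, 551 bp wide, it reached a fold of 36.6 with 74 reads (interval 58.1 to 92.9) and a −log10 q of 102. By fold it was the first of the 3378 arm peaks and the third in the whole list. A second peak, from 83749769 to 83749872, had a fold of 10.7 and 21 reads (13.0 to 32.1). The peaks covered 44.3% of the pseudogene, and the nearest other summit was 3845 kb away. The long arm of X had 26 arm peaks in all, 9 of them strong.

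TERF1P5 on chromosome 13 (18680495 to 18683302) had 3 peaks, all in the part near its lower end. The strongest, from 18681338 to 18681456, had a fold of 17.6 and 35 reads (interval 24.4 to 48.7). The middle peak, from 18680849 to 18681193, was 345 bp wide with a fold of 8.29 and 16 reads (9.15 to 26.0). The outermost, from 18680624 to 18680713, had a fold of 4.30, 13 reads (6.92 to 22.2) and an input background of 2.26, above the minimum, and was not strong. This locus lies in a centromere band with 784 other peaks within 1 Mb, of which 402 were strong, with folds of up to 12.8. None of these was nearer than 465 kb. The strongest TERF1P5 peak exceeded them in fold, and the middle and outermost peaks did not exceed the highest of them. The nearest of these other peaks had 17 reads at a fold of 5.27, below the middle TERF1P5 peak with 16 reads. The folds were thus taken over unlike backgrounds.

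TERF1P2 on chromosome 18 (14375940 to 14378757) had 2 peaks towards its upper end. The peak from 14377765 to 14377874 had a fold of 12.2 and 24 reads (interval 15.4 to 35.7), the same deposited values as the sixth TERF1 summit. The peak from 14378366 to 14378482 had a fold of 6.83 and 13 reads (6.92 to 22.2). Only 3 other summits lay within 1 Mb, none of them strong, and the nearest was 433 kb away.

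TERF1P3 on chromosome 4 (136353469 to 136356337) had a single peak, from 136355326 to 136355394, with a fold of 4.88, 9 reads (interval 4.12 to 17.1) and a −log10 q of 3.20. It was 69 bp wide and not strong, and 70.4% of all peaks had a lower fold. The nearest other summit was 270 kb away. Of the 2 other peaks within 1 Mb, 1 was strong, with a fold of 13.7, above that of TERF1P3. Reads at this summit were the fewest of the family, with an interval apart from those of the strongest peaks of TERF1, TERF1P4 and TERF1P5 and overlapping that of TERF1P2.

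TERF1P1, TERF1P6 and TERF1P7 had no summit. Their nearest summits were 215 kb, 107 kb and 65.8 kb away, with folds of 2.93 to 2.97 and 5 to 7 reads. TERF1P1, at 2727 bp, is longer than TERF1P4 and somewhat shorter than TERF1P2, TERF1P3 and TERF1P5, which had peaks. The weakest peaks of the list had 5 reads at the summit, so weaker binding at TERF1P1, TERF1P6 and TERF1P7 could not be detected with these reads.

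**Figure D3:**
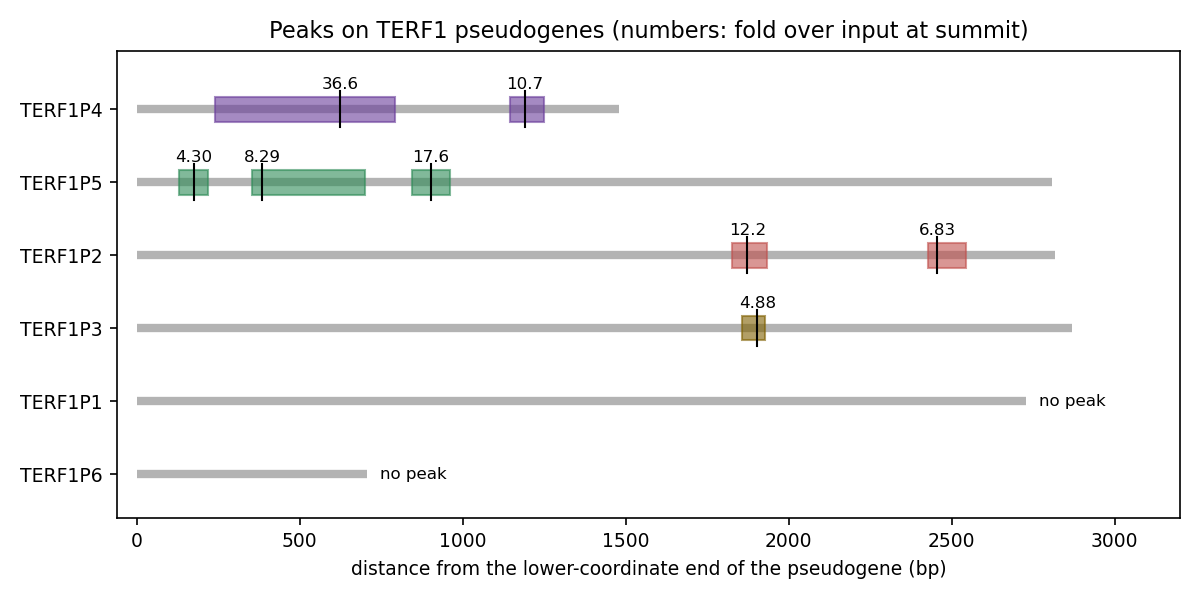
Peaks (coloured boxes, with the summit as a black line and its fold above) on 6 TERF1 pseudogenes, drawn to scale by distance in bp from the lower-coordinate end. TERF1P5 carries its peaks near the lower end, TERF1P4 on both sides of its middle, TERF1P2 and TERF1P3 in their upper parts (strongest summits at 1873 and 1904 bp), and TERF1P1 and TERF1P6 none; TERF1P7 (32777 bp, no peak) is not drawn.

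Summit positions were alike between pseudogenes when measured from an end picked for each from its own summits. Such a choice favours a match, so the likeness is a description only. The strongest summit lay 1873 bp from the lower and 944 bp from the upper end of TERF1P2, 1904 and 964 bp in TERF1P3, and 903 and 1904 bp in TERF1P5. In each of these pseudogenes of nearly equal length, it was therefore 903 to 964 bp from one end and 1873 to 1904 bp from the other. TERF1P4, which is shorter, had it 853 bp from its upper and 624 bp from its lower end. Measured from the same ends, the next summit lay at 362 bp in TERF1P2, 385 bp in TERF1P5 and 286 bp in TERF1P4. The spacing of these pairs was 582, 518 and 567 bp. TERF1P5 had a further, weaker summit at 174 bp, with none at that place in the other pseudogenes. The end was picked for each pseudogene after its values were seen, as the one nearer the weaker summit, or the nearer one where there was 1 summit. Strand is not in the gene table, so these ends were not assigned as the start or terminus of the copied gene.

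**Figure D4:**
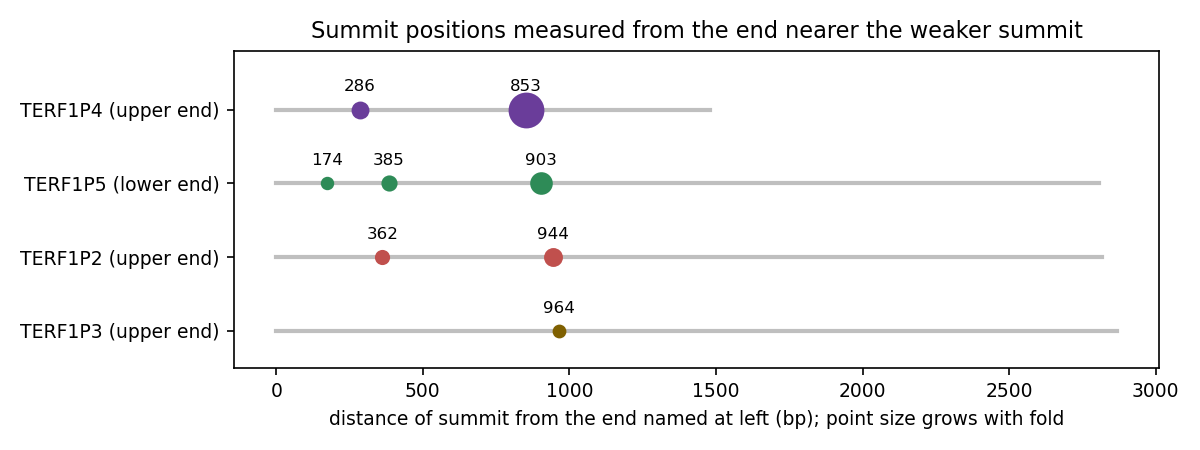
Summits of the 4 pseudogenes with peaks, by distance in bp from the end named at left, which was chosen after the values were seen; grey lines are the annotated spans and point size grows with fold. The strongest summits sit at 853 to 964 bp and the next at 286 to 385 bp, and TERF1P5 has a further one at 174 bp.

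The outermost summits were 37069 bp apart in TERF1, which is 94.4% of its span. They were 729 bp apart in TERF1P5 (26.0% of its span), 582 bp in TERF1P2 (20.7%) and 567 bp in TERF1P4 (38.4%), whose spans are far shorter. In TERF1 the last summit was 2092 bp from the upper end. In the pseudogenes of about 2.8 kb the strongest summit had 1873 to 1904 bp without a further summit on one side. That side was the lower one in TERF1P2 and TERF1P3 and the upper one in TERF1P5. A match of these stretches to the upper end of TERF1 was not tested. Whether the TERF1 summits fall on exons, and whether the pseudogene summits fall on sequence copied from them, was not tested, because genome sequence and exon positions were not used here. Copies of one gene can share reads. The sources used here do not say how reads that align equally well to several places were handled, so signal at TERF1 and at its pseudogenes cannot be told apart where their sequences are the same.

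Few other genes resembled TERF1 in the number of strong summits. Of 102 protein-coding genes on arms with at least 1, 94 had exactly 1. Nearest to TERF1 were ENAH (7), an actin regulator gene, TERF2 (9) and DUX4 (4), a homeobox gene of repeat arrays. The TERF1 summits reached a higher fold (20.1) than those of ENAH (7.32), TERF2 (12.2) or DUX4 (2.76). Strong summits were spread over 66337 bp in ENAH, 28831 bp in TERF2 and 1275 bp in DUX4. In TERF2 the input background was above its minimum at 9 of 9 summits, against 3 of 8 in TERF1. It was at its minimum at 3 of the 7 strong summits of ENAH and at 0 of the 4 of DUX4. The folds of these genes were thus taken over unlike backgrounds.

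Outside the family, pseudogenes on arms had weaker peaks than TERF1P4, and some had stronger ones than TERF1P3 (4.88). After TERF1P4 (36.6), the highest folds belonged to LOC112268162 (12.7), COX6B1P3 (11.5) and CENPBD2P (9.38), and each of these 3 had its 1 summit beside the annotated span and not inside it. Families were taken by name, as the parent symbol followed by P and digits. Among 687 parent genes with 3 or more pseudogenes so named, TERF1 had the most with a strong summit (3 of 7). CDC27, which encodes a subunit of the anaphase-promoting complex, followed with 2 of 11. DUXA had 1 of 12, COX6B1 had 1 of 7 and SEPTIN7 had 1 of 15. TERF1 was the only parent in this set with a strong summit both in the gene and in at least 1 of its pseudogenes. Copies named in other ways were left out of the set. Among them, DUX4L16, DUX4L17, DUX4L19 and DUX4L20 had 2 or 3 strong summits each, beside their spans, and DUX4 itself had 4. Without regard to strength, 3 families reached the share of TERF1 (4 of 7): TERF1 itself, MYO5B (3 of 3) and NBEA (4 of 6), neither of which had a strong one.

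Genes for the other shelterin proteins and for partners of TRF1 were listed next. Of the other 5 shelterin genes, TERF2 had 9 summits, all strong, and TERF2IP, TINF2, POT1 and ACD had none. Of 18 genes for proteins that bind, modify or act with TRF1, 1 had a summit, which is 5.56%, close to the 4.74% of all protein-coding genes. It was NEK7, a mitotic kinase gene, with 1 weak peak (fold 3.90, 7 reads, −log10 q 1.53). The 17 others included the tankyrases TNKS and TNKS2, which release TRF1 from telomeres by ADP-ribosylation, the ubiquitin ligase genes FBXO4 and RLIM, and PINX1, whose product binds TRF1 and inhibits telomerase. They also included TERB1, TERB2 and MAJIN, which tether telomeres to the nuclear envelope in meiosis.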

How the data were processed

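Per the labels' protocols, HCT116 chromatin was fixed with formaldehyde, sonicated and precipitated with an anti-TRF2 antibody. Per the submitters' processing notes, the tools were Bowtie2 2.3.2, MACS2 2.1.0, ChIPseeker 1.36.0 and HOMER, on hg38, with no settings stated. The authors deposited peaks of 1 immunoprecipitate over 1 input, with a score (10 times −log10 p, whole part), a fold enrichment ratio, and the −log10 p-value and −log10 q-value at the summit.

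Reads at the summit were recovered as the whole number that gives both fold, (reads + 1)/(background + 1), and the upper Poisson tail p, within 0.001 on −log10 p, for 100% of peaks. The step was tested on simulated data with low backgrounds, and not at the highest backgrounds of the list (up to 77.8). Backgrounds within 0.001 of the lowest counted as minimal. Totals of reads per library were not used here.

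Gene spans came from RefSeq (GRCh38.p14, 58961 genes on primary chromosomes; 831 table entries on other sequences left out), and bands from circlize 0.4.16. Of the family, 0 members had an entry in the sequence tables. Python 3.11.15, pandas 2.3.3, scipy 1.17.1 and R 4.3.3 were used. No test was run. The members, gene lists and rules were chosen with earlier results of these data known. Named besides the family are listed shelterin and TRF1-partner genes, flanking genes, the 3 arm protein-coding genes nearest TERF1 in strong summits, the 3 other arm pseudogenes of highest fold and up to 5 pseudogene families with most strong members (ties to the larger share with a summit); MYO5B and NBEA were named after their values were seen.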

Additional observations from a re-analysis of the deposited data

How the results depend on the processing

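The 5 family loci with a summit stayed 5 with summits inside the spans only, with a 10 kb margin and with any overlap of the peak interval, and were 4, without TERF1P3, at a −log10 q of 5 or more. The 16 summits were 13 at a −log10 q of 5 or more or at a fold of 5 or more, and 15 with summits closer than 500 bp counted once. The share of all genes with a summit, 3.09%, was 2.56% inside spans only, 0.38% for strong summits, 4.74% for protein-coding genes, 1.5% for pseudogenes and 2.9% on arms alone, the last chosen after seeing the data. Of protein-coding genes on arms, 3, TERF1 itself included, had at least as many strong summits as TERF1 under the settings run (a fold of 5 or more, and summits inside spans only). The 3 families with at least the share of TERF1 were 2 with families of 5 or more, and 1 (TERF1) when strong summits were required. The planned settings for exons and for sequence identity were not run, since exon positions and genome sequence were not used here. No paired analysis was possible because each group had 1 library. With 1 immunoprecipitate, the spread between replicates is unknown, and intervals cover counting error only.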
